A study of Irpex lacteus with 14 samples.

Results

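In the white-rot fungus Irpex lacteus, 23 of 967 genes had their highest transcript level on wheat straw without being set apart by other plant materials or by solid substrates in general. The members were chosen on the same deposited values that are given here. A gene entered when its normalized log2 read count on straw exceeded the highest of its 4 other values, those on maltose, cellulose, aspen and pine, by 0.8 or more. Genes of 3 other patterns were then left out: a gene whose lowest value among cellulose, aspen and pine exceeded maltose by 1 or more, one whose lower value on the woods exceeded both maltose and cellulose by 1 or more, and one whose pine value exceeded maltose, cellulose and aspen by 1 or more. A difference of 1 on this scale is 2-fold. Every difference between straw and another substrate is therefore a description and carries no test.

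All cultures were mycelium of strain CCBAS Fr. 238 617/93, shaken for 3 days at 30 °C in 100 ml of a mineral medium with yeast extract and ammonium tartrate. The maltose cultures held 20 g of maltose per litre and no solid. The cellulose cultures held 2.5 g of maltose and 15 g of Avicel, a microcrystalline cellulose, per litre. The straw and pine cultures held the same amounts of sugar and solid, as fragments under 2 mm, and the aspen cultures held 15 g per litre of wood milled to 1 mm, with a sugar level that is not legible in the label. There were 3 libraries each on maltose, cellulose, straw and aspen and 2 on pine, and the authors deposited 1 value per gene and substrate. The spread between libraries and their depth are unknown, so no value below has an error and no difference could be tested. Nothing in the labels says whether the libraries of a substrate came from separate cultures.

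White-rot fungi break down all the main polymers of plant cell walls, lignin included, with secreted hydrolases and oxidative enzymes, and many of these genes respond to the carbon source. Wheat straw is a grass material, in which cellulose is embedded in arabinoxylan, a branched xylan that carries ferulic acid, and in a grass-type lignin. Maltose, by contrast, is a sugar that is taken up or split with little need for wall-degrading enzymes. Which of these functions the 23 genes serve is not stated here, since the files give each gene as a number from the MycoCosm portal and do not pair the numbers with names. The values are read counts that are not divided by gene length, so levels are compared between substrates for the same gene and not between genes. They measure a transcript's place in the pooled RNA of the culture: a change in the number of hyphae that express a gene and a change in RNA per cell cannot be told apart.

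Across the members, straw lay above the highest other substrate by a median of 1.24 on the log2 scale, with a range from 0.80 to 2.41. Over all 967 genes the same quantity had a median of -0.69. In the table as a whole, 40 genes (4.14%) had straw at least 1 above every other substrate, and 17 of the 23 members were among them. The median difference of straw was 2.20 from maltose, 1.95 from cellulose, 1.85 from aspen and 1.35 from pine. All genes together had medians of 0.09, 0.04, 0.01 and -0.34 for these 4 differences. By these medians pine was the substrate closest to straw, also after quantile normalization (1.37) and after centring each column on its median (1.62). By the number of members in which it came second, pine did not lead under these 2 scalings. It was second for 6 and 7 members, and maltose for 7 under each. Pine was also closest in the 30 genes left out by another condition, with medians of 1.63 from pine, 1.90 from cellulose, 2.07 from aspen and 5.27 from maltose.

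**Figure D1:**
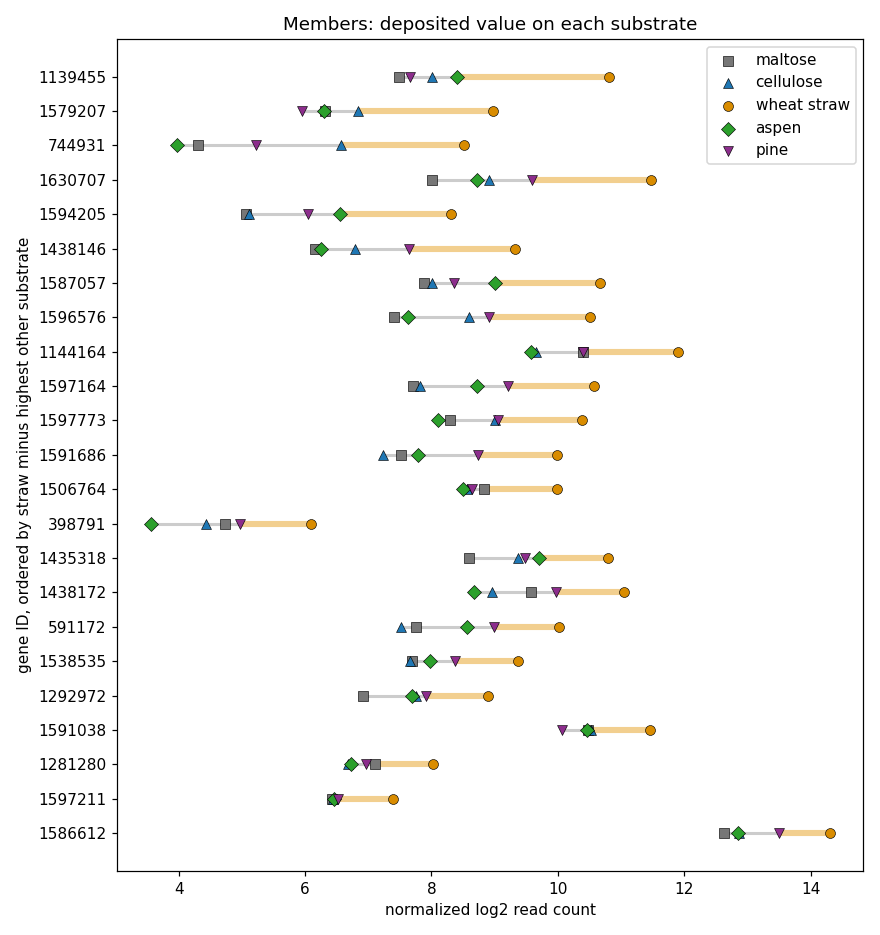
Normalized log2 read count of each of the 23 members (vertical axis, gene IDs) on each of the 5 substrates (horizontal axis), 1 deposited value per point, with no error available. The orange bar is the distance from the highest other substrate to straw, from 2.41 in gene 1139455 to 0.80 in gene 1586612, and the grey line spans the 4 other substrates.

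The largest margin belonged to gene 1139455. It stood at 10.80 on straw, against 8.40 on aspen, 8.004 on cellulose, 7.65 on pine and 7.48 on maltose. Straw was thus 5.30-fold above aspen, the next substrate, and 9.99-fold above maltose. The other 4 values lay within 0.91 of each other, so that the gene was within 2-fold on everything but straw. Gene 1579207 had the second margin and the same form. It stood at 8.97 on straw, against 6.84 on cellulose, 6.32 on maltose, 6.30 on aspen and 5.95 on pine. Straw was 4.38-fold above cellulose and 8.09-fold above pine, and the other 4 values spanned 0.88. These 2 genes were the members whose straw value was at least 4-fold (2 on the log2 scale) above each other substrate.

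Cellulose was the second substrate for 3 members (13.0%), gene 1579207 among them, and it was the highest of the 4 other substrates for 18.3% of all genes. This count depends on the scaling of the columns. It was 5 members with quantile normalization and 5 with centring, where 17.3% and 17.7% of all genes had cellulose highest of the 4. Gene 744931 had the widest spread off straw of all members, at 2.60. It stood at 8.51 on straw, 6.57 on cellulose, 5.22 on pine, 4.31 on maltose and 3.97 on aspen. Cellulose was 4.77-fold above maltose in this gene, whereas aspen was at 0.788 times the maltose level, so the values on the solids did not move as a block. Straw was 3.86-fold above cellulose, 9.80-fold above pine, 18.4-fold above maltose and 23.3-fold above aspen. The last ratio was the highest of the 23 members for any pair with straw. Gene 1591038 was nearly level off straw on the deposited values, at 10.52 on cellulose, 10.48 on maltose, 10.47 on aspen and 10.07 on pine. It reached 11.45 on straw, 1.91-fold above cellulose.

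Aspen came second for 4 members (17.4%), gene 1139455 among them, beside 15.5% of all genes in which it was the highest of the 4. Gene 1594205 stood at 8.30 on straw, 6.55 on aspen, 6.04 on pine, 5.11 on cellulose and 5.07 on maltose. Its values followed the plant materials: cellulose was within 0.04 of maltose, aspen was 2.79-fold and pine 1.96-fold above maltose, and straw was 9.43-fold above it. Gene 1587057 had the same order, at 10.66 on straw, 9.00 on aspen, 8.36 on pine, 8.01 on cellulose and 7.88 on maltose. Straw was 3.17-fold above aspen and 6.86-fold above maltose. Gene 1435318 stood at 10.79 on straw, with 9.70 on aspen, 9.48 on pine and 9.37 on cellulose close together and 8.59 on maltose. Each of the 3 other solids was between 1.72-fold and 2.16-fold above maltose in this gene, and straw was 4.60-fold above.

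Pine was second for 14 of the 23 members (60.9%). Pine was also the highest of the 4 other substrates for 443 of all 967 genes (45.8%), so the share among the members is not far from that of the table. In the 14 genes, straw exceeded pine by a median of 1.19, from 0.80 to 1.87. In 7 of them pine was at least 2-fold above maltose, and in the other 7 it was not. The largest margin over pine was that of gene 1630707, which stood at 11.47 on straw, 9.60 on pine, 8.92 on cellulose, 8.72 on aspen and 8.02 on maltose. Straw was 3.66-fold above pine, and pine was 2.99-fold above maltose, the highest pine-to-maltose ratio of the members.

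Genes 1438146 and 1596576 shared a low value on aspen. Gene 1438146 stood at 9.33 on straw and 7.64 on pine, against 6.78 on cellulose, 6.26 on aspen and 6.16 on maltose. Aspen was 1.07-fold and pine 2.79-fold above maltose. Gene 1596576 stood at 10.51 on straw, 8.92 on pine and 8.59 on cellulose, against 7.63 on aspen and 7.41 on maltose. In both genes the woods differed from each other by more than 2-fold, and aspen lay near maltose. In gene 1597164, by contrast, both woods were above maltose and cellulose. It stood at 10.57 on straw, 9.21 on pine, 8.72 on aspen, 7.82 on cellulose and 7.71 on maltose. Gene 591172, which was named after its values were seen, had the same order of plant materials, at 10.01 on straw, 8.99 on pine and 8.56 on aspen, with 7.76 on maltose and 7.52 on cellulose. Gene 1591686 stood at 9.98 on straw and 8.74 on pine, while aspen (7.79), maltose (7.52) and cellulose (7.24) lay within 0.55 of each other.

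In 3 of the members with pine second, cellulose and aspen were both below maltose and pine exceeded maltose by at most 0.40. Gene 1144164 stood at 11.91 on straw and at 10.39 on both pine and maltose, with 9.66 on cellulose and 9.58 on aspen. Aspen was at 0.570 times and cellulose at 0.601 times the maltose level. Gene 1438172 stood at 11.05 on straw, 9.97 on pine, 9.57 on maltose, 8.96 on cellulose and 8.68 on aspen. Gene 398791, also named after its values were seen, stood at 6.10 on straw, 4.97 on pine, 4.73 on maltose, 4.44 on cellulose and 3.56 on aspen. As deposited, its aspen value was the single case among the members in which another substrate was at least 2-fold below maltose. Over all genes 6.41% were that low on aspen, 3.83% on cellulose and 9.41% on pine. This case rested on low linear values, 11.8 on aspen and 26.5 on maltose, and the filter at 5 dropped the gene. It also depends on the scaling. With quantile normalization, for example, the lowest other solid minus maltose was -1.33 in gene 1144164, -1.47 in gene 1438172 and -1.21 in gene 1591038. With centring it was -1.08 in gene 1591038. For genes 1144164, 1438172 and 398791, as deposited, the distance from straw was 5.02-fold, 5.19-fold and 5.81-fold on aspen. On pine it was 2.86-fold, 2.12-fold and 2.19-fold.

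The other members with pine second had smaller margins or a narrower spread. Gene 1597773 stood at 10.38 on straw, with 9.05 on pine and 9.01 on cellulose almost equal, and with 8.30 on maltose and 8.10 on aspen. Gene 1292972 stood at 8.90 on straw, 7.92 on pine, 7.76 on cellulose, 7.70 on aspen and 6.91 on maltose. There the 3 other solids lay together above maltose, as in gene 1435318. Gene 1538535, named after its values were seen, stood at 9.36 on straw and 8.37 on pine, with 7.98 on aspen, 7.68 on maltose and 7.65 on cellulose. Gene 1586612 stood at 14.30 on straw, 13.50 on pine, 12.87 on cellulose, 12.85 on aspen and 12.62 on maltose. Its margin over pine was the smallest of all members, at 1.75-fold, while straw was 3.19-fold above maltose.

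On the deposited values, maltose was second for 2 members (8.70%), where it was the highest of the 4 for 20.4% of all genes. This count depends on the scaling. Maltose was second for 7 members with quantile normalization and for 7 with centring, where 39.0% and 41.6% of all genes had maltose highest of the 4. In the 2 members found on the deposited values, no solid other than straw exceeded the sugar culture. Gene 1506764 stood at 9.99 on straw, 8.82 on maltose, 8.64 on pine, 8.56 on cellulose and 8.49 on aspen. Gene 1281280 stood at 8.02 on straw, 7.11 on maltose, 6.96 on pine, 6.72 on aspen and 6.68 on cellulose. Straw was 2.24-fold and 1.88-fold above maltose in these genes. The most even of all as deposited was gene 1597211, at 6.52 on pine, 6.46 on aspen, 6.45 on cellulose and 6.43 on maltose, against 7.39 on straw. Its 4 other values spanned 0.08, which was the narrowest span among all 967 genes. Straw was 1.83-fold above pine and 1.94-fold above maltose, so on this scaling the contrast in this gene was that of straw against the rest. After rescaling its other values were less even. With centring, its lowest value among cellulose, aspen and pine minus maltose was -0.58, beside a straw margin of 0.56. With quantile normalization these were -0.42 and 0.78.

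The thresholds cut through a continuous range of values. The members just inside the straw margin were gene 1586612, at 0.803, and gene 1597211, at 0.872. Just outside were gene 1591047, at 0.798, and gene 1488659, at 0.769. Gene 1591047 stood at 9.28 on straw and 8.48 on pine, and it also failed the condition on the woods, with a lower wood value 1.41 above maltose and cellulose. Gene 1488659 stood at 12.06 on straw and 11.29 on aspen and met the 3 other conditions. Among the other conditions, gene 1591686 had the highest permitted pine value, 0.96 above maltose, cellulose and aspen, followed by gene 1438146 at 0.86. The lower wood value was 0.93 above maltose and cellulose in gene 1594205 and 0.91 in gene 1597164. The lowest of cellulose, aspen and pine was 0.79 above maltose in gene 1292972 and 0.78 in gene 1435318. The nearest genes left out were 1582832 for the woods (1.03), 1537763 for pine (1.03) and 1579031 for the 3 solids (1.12).

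**Figure D2:**
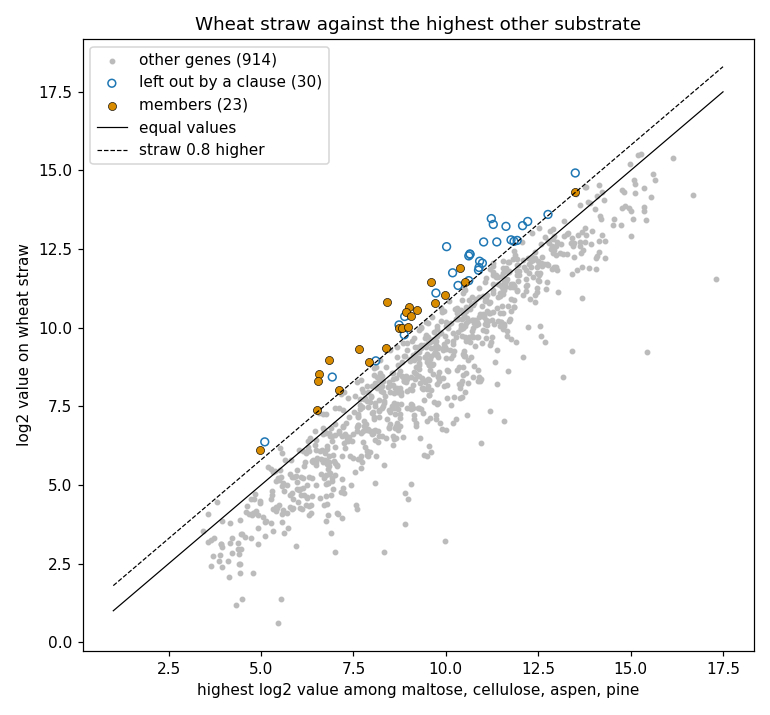
Log2 value on straw (vertical axis) against the highest log2 value among maltose, cellulose, aspen and pine (horizontal axis) for the 967 genes, 1 point per gene. The 23 members (filled) and the 30 genes left out by another condition (open circles) lie above the dashed line, which marks straw 0.8 higher.

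Straw was not the only substrate above maltose in every member. Of the 23 genes, 12 were within 2-fold of maltose or below it on cellulose, aspen and pine, 9 were at least 2-fold above maltose on 1 of these solids, and 2 on a pair of them (gene 1597164 on aspen and pine, gene 1596576 on cellulose and pine). The rule sets this split in part, since it left out any gene at least 2-fold above maltose on all of these solids. The split was not counted over all genes, so only the shares by solid can be set beside the table. By solid, 7 members were at least 2-fold above maltose on pine, 4 on aspen and 2 on cellulose. Over all genes the shares were 32.2% on pine, 21.0% on aspen and 12.5% on cellulose, and the members' shares were 30.4%, 17.4% and 8.70%. These counts depend on the scaling of the columns, since the median of all genes lay above maltose by 0.30 on cellulose, 0.52 on aspen and 0.67 on pine, and by 0.39 on straw. With each column centred on its median, 1 member was at least 2-fold above maltose on cellulose, aspen or pine, where the deposited values gave 11, and with quantile normalization 2 were. The number with pine second became 7 with centring and 6 with quantile normalization, where 28.7% and 27.8% of all genes had pine highest of the 4. The genes are therefore best described as highest on straw, and on the deposited values the 4 other substrates lay within 2-fold of each other in 10 of the 23.

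Off straw, the members differed about as much as other genes did. Their range over maltose, cellulose, aspen and pine had a median of 1.11, against 1.22 for all genes, and it reached 2-fold in 13 of 23 members (56.5%) and in 582 of all genes (60.2%). The conditions of the rule hold these values down in part. Relative to maltose, the members had a median of 0.10 for cellulose, 0.21 for aspen and 0.75 for pine, and all genes had 0.03, 0.10 and 0.43. Pine was above aspen in 17 members (73.9%) and below it in 6, and it was above aspen in 61.3% of all genes. Aspen was at least 2-fold below pine in 5 members (genes 744931, 1438146, 1596576, 1438172 and 398791), a share of 21.7% beside 20.1% of all genes, and in no member was aspen 2-fold above pine, as it was in 7.03% of all genes.

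Against each single substrate, straw was at least 2-fold higher than maltose in 20 members, than cellulose in 21, than aspen in 21 and than pine in 19. Over all genes the shares were 24.5%, 20.4%, 15.4% and 8.69%. At 4-fold the numbers were 13, 11, 11 and 5 members, beside 13.8%, 8.38%, 5.17% and 2.79% of all genes. The rule used each of these contrasts. Cellulose and pine are the cultures that shared the level of maltose and of solid with straw, so those pairs do not differ in the sugar given. The 3 members under 2-fold against maltose were genes 1591038, 1597211 and 1281280, at 1.96-fold, 1.94-fold and 1.88-fold.

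The members were a subset of 53 genes (5.48%) in which straw was highest by 0.8 or more. On the deposited values, the same margin was reached by pine in 75 genes, by cellulose in 20, by aspen in 19 and by maltose in 13. Such counts depend on the scaling. Straw reached the margin in 54 genes with quantile normalization and in 70 with centring, and the counts of the other substrates under these scalings are not given here. The other 30 genes of the straw group failed 1 or more of the further conditions: 20 were above maltose on all of cellulose, aspen and pine, 7 were above maltose and cellulose on both woods, and 6 had a high pine value, with 3 genes counted more than once. Members and left-out genes had similar margins, with medians of 1.24 and 1.31. They differed where the rule separates them. The left-out genes had median differences from maltose of 3.53 on cellulose, 3.47 on aspen, 2.81 on pine and 5.27 on straw, against 0.10, 0.21, 0.75 and 2.20 in the members. No member exceeded maltose by more than 4.20 on straw, whereas the left-out genes reached 12.21.

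**Figure D3:**
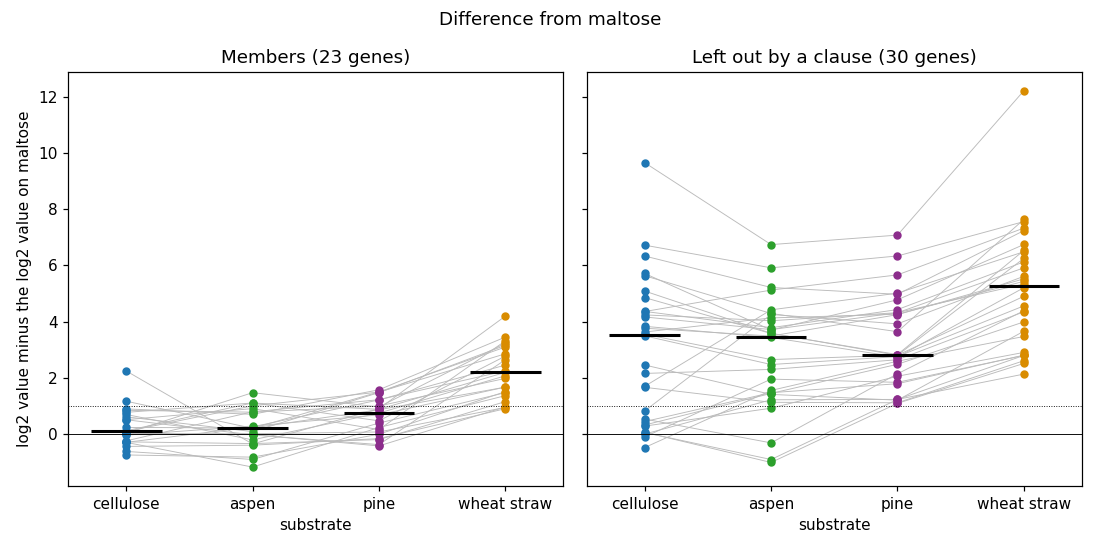
Difference of the log2 value from that on maltose (vertical axis) on each solid substrate, for the 23 members (left) and the 30 genes left out by another condition (right). Each point is 1 gene, grey lines join the values of a gene, black bars are medians, and the dotted line marks 2-fold. The members' medians are 0.10 on cellulose, 0.21 on aspen, 0.75 on pine and 2.20 on straw.

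Genes with a profile like the mean of the members were sought among the 686 non-members with a range of at least 2-fold. The likeness was Pearson's r over the 5 substrates, which is a description over 5 shared columns. The members themselves had r from 0.82 to 0.98 with their own mean profile. The closest non-member was gene 1524707 (r = 0.96), at 13.47 on straw, 11.23 on pine, 9.62 on cellulose, 9.08 on maltose and 8.77 on aspen. Its straw margin of 2.24 was larger than that of all members except gene 1139455, and it was left out because pine exceeded maltose, cellulose and aspen by 1.61. Gene 1283556 (r = 0.92), at 11.75 on straw and 10.18 on pine, was left out by the same condition. Genes 1591312 (r = 0.95), 1283427 (r = 0.93) and 1434823 (r = 0.92) fell short of the straw margin, at 0.66, 0.68 and 0.70.

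Converted to linear values, the members held 2.38% of the summed values of the table on straw, 1.05% on aspen, 0.879% on maltose, 0.832% on pine and 0.819% on cellulose. The order after straw depends on the column totals. The members' own sum was 21124 on pine, above 14858 on aspen, 14728 on cellulose and 13237 on maltose. The sum of the whole table was also largest on pine, at 2.54e+06, against 1.42e+06 on aspen. These sums add counts that are not divided by gene length. A single gene, 1586612, supplied between 42.2% (straw) and 54.7% (pine) of the members' sum. Without it the shares were 1.39% on straw, 0.530% on aspen, 0.462% on maltose, 0.405% on cellulose and 0.379% on pine. That straw came first follows largely from the rule. Aspen and maltose remained next, and the order of pine and cellulose turned. These shares are of the genes in the table, and not of a whole library.

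Ranks within a column do not depend on a shift or rescaling of that column as a whole. All 23 members had their highest rank on straw. They were chosen for a high straw value on these same data, so a higher rank on straw largely follows from the rule. Their median percentile among the 967 genes was 65.8 on straw, against 47.3 on pine, 41.7 on maltose, 40.5 on aspen and 40.0 on cellulose. On straw 18 members were in the upper part of the column (above percentile 50), against 10 on pine, 9 on cellulose, 7 on maltose and 5 on aspen. Gene 744931 differed most between maltose and straw, from percentile 5.89 to 49.0, and on aspen it was at 3.41. Gene 1591038 hardly moved between maltose (79.9) and straw (80.6), so its rank did not show the difference from maltose seen in its value. It was lower on cellulose (75.4), aspen (74.9) and pine (65.8).

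**Figure D4:**
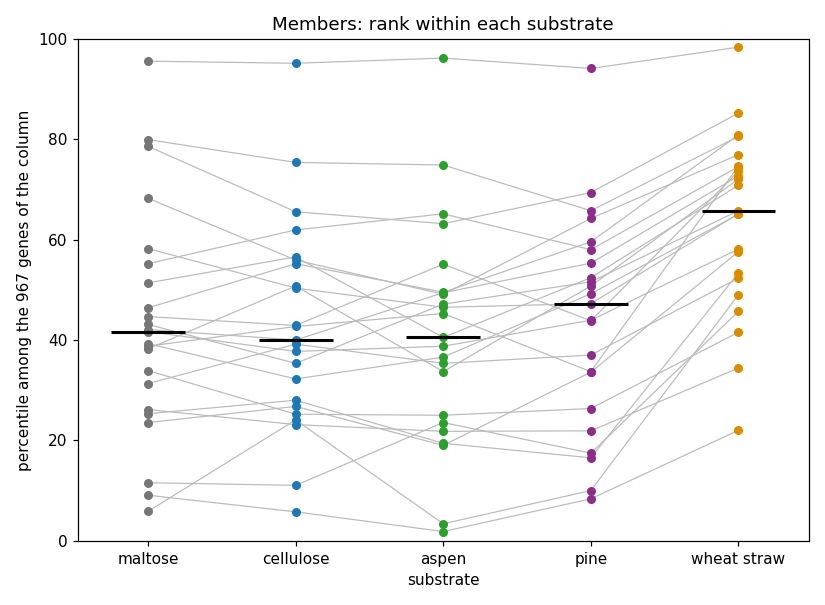
Percentile of each of the 23 members among the 967 genes of a column (vertical axis, 0 to 100) on each substrate. Points are genes, grey lines join the values of a gene, and black bars are medians, which lie at 65.8 on straw and between 40.0 and 47.3 on the other substrates.

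The margin of straw depended on the scaling for part of the members. After both quantile normalization and centring, 16 of the 23 genes still met every condition, and 4 met it under neither: genes 1506764, 1281280, 1597211 and 1591038. Their margins were 0.54, 0.58, 0.78 and 0.08 with quantile normalization and 0.77, 0.52, 0.56 and 0.58 with centring. These are the 4 members with the narrowest range off straw on the deposited values, from 0.08 to 0.45. Genes 1144164, 1435318 and 1438172 were under 0.8 with quantile normalization alone, at 0.61, 0.77 and 0.73. The 8 members with the largest margins stayed at 1.45 or more under every alternative of filter, added value and scaling, and straw remained the highest substrate in all 23 genes under these alternatives. The median difference of straw from maltose was 1.59 with quantile normalization and 1.81 with centring, against 2.20 as deposited.

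**Figure D5:**
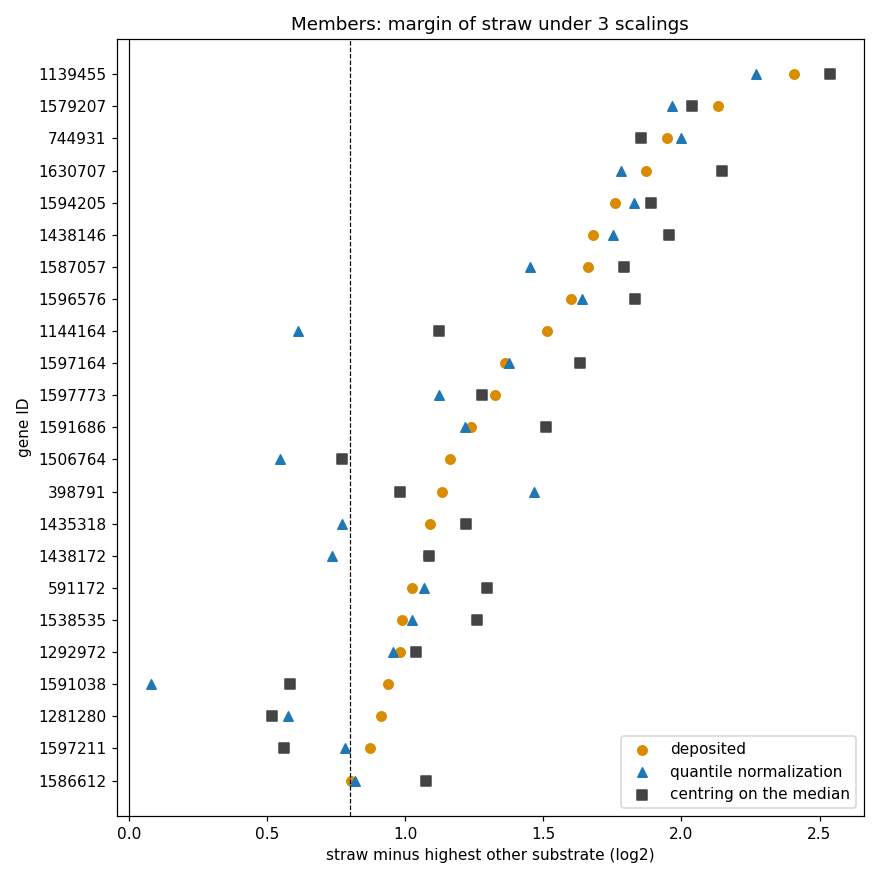
Straw minus the highest other substrate (horizontal axis, log2) for each of the 23 members with the deposited values, with quantile normalization and with each column centred on its median. The dashed line marks the threshold of 0.8. Gene 1591038 is at 0.08 with quantile normalization, while gene 1139455 lies between 2.27 and 2.54.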

How the data were processed

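The labels describe 14 polyadenylated RNA libraries of Irpex lacteus mycelium on 5 substrates. Per the file headers, each value the authors deposited is a log2 normalized read count, 1 for a gene on a substrate. The submitters' processing notes list TopHat2, HTSeq and DESeq (version 1.5) without saying what each did. The sources used here do not give the genome build, annotation, strand setting or size factors, nor how the libraries of a substrate were averaged or whether a value was added before taking logarithms. The table's 1000 rows held 23 identical repeats, which were dropped. Of the remaining 977 genes, 967 had a log2 value of at least 3.32 in 2 or more substrates and were kept. The sources used here do not say how genes were selected for the table.

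Members were found by the stated conditions, and the search was tested on simulated data. The members, thresholds and naming rule were chosen with earlier results of these data known. Genes were named by size of margin, level on straw, second substrate, range off straw, closeness to a threshold and likeness in profile, which took in 20 of the 23 members. The other 3 were named after their values were seen. A gene counted as higher at a log2 difference of 1. With 1 value per substrate no test was possible, depth is unknown, and no error or p-value is given. Alternatives were no filter, a filter at 5, 8 added to the linear values, quantile normalization, centring on the median and other margins. Lists of enzyme families could not be filled, as no annotation was used here. Python 3.11.15, pandas 2.3.3 and numpy 2.4.6 were used.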

Additional observations from a re-analysis of the deposited data

How the results depend on the processing

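The number of members was 23 without a filter, 22 with the stricter filter (gene 398791 dropped), 24 with 8 added to the linear values (gene 592600 joined) and 32 with quantile normalization, of which 16 were among the 23. It became 39 with centring, of which 19 were among the 23, 17 with a margin of 1, 2 with a margin of 2, and 53 when the straw margin was the only condition. Centring shifts straw against each other substrate by a fixed amount for every gene. The straw median differed from the pine median by -0.27 and from the maltose median by 0.39. In gene 1283427, for example, centring took the straw margin from 0.68 to 0.95. Quantile normalization also shifts the columns by construction, but why it brought in other genes was not tested. The median margin of straw over the highest other substrate, taken over the 23 genes (22 with the stricter filter), ran from 1.12 to 1.28 under the alternatives of filter, added value and scaling, and the median difference of straw from maltose from 1.59 to 2.23. The number with a margin of at least 1 ran from 14 to 18, and 15 of the 23 genes were members under every one of these alternatives. The counts with pine, maltose, cellulose or aspen second and with another solid above maltose, and the shares of summed values without gene 1586612, were added after the data were seen. No paired analysis was possible because the table has 1 value per substrate and no column carries a replicate number. For the same reason leaving out each replicate was not run, and the precision of each value is unknown.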
